A study of Arabidopsis thaliana with 30 samples.

Results

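The response of Arabidopsis leaves to loss of HEN2 was compared between the se-2 mutant of SERRATE (SE) and WT, and 84 of 19454 genes tested responded differently in the 2 backgrounds. The measure was the interaction on the log2 scale, the log2 fold change of se-2 hen2-2 over se-2 minus the log2 fold change of hen2-2 over WT. A value above 0 (57 genes, 0.293% of the genes tested) means that loss of HEN2 raised a transcript more, or lowered it less, in se-2 than in WT. A value below 0 (27 genes, 0.139%) means the reverse. Genes were called at an adjusted p under 0.05 (quasi-likelihood test of edgeR, Benjamini-Hochberg method), and 2046 genes had an unadjusted p under 0.05.

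HEN2 is an RNA helicase of the nuclear exosome targeting (NEXT) complex, which hands nuclear transcripts to the RNA exosome for degradation. SE is a zinc finger protein that helps DCL1 to cut primary miRNA transcripts (pri-miRNAs) into miRNAs, which in turn direct the cleavage of their target mRNAs. Its animal homologue ARS2 links capped nuclear transcripts to NEXT.

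The comparison used 12 of the 30 samples of the series, with 3 replicates each of se-2 hen2-2, se-2, hen2-2 and WT. All were in the Col-0 background and were leaves of 4-week-old plants grown in soil at 20 °C with 16 h of light and 8 h of dark, sequenced after removal of ribosomal RNA. hen2-2 is the T-DNA line GK774_H07, se-2 is a mutation that truncates SE, and se-2 hen2-2 came from a cross, so each locus was represented by 1 allele. A further 3 libraries each of hen2-2 and WT, from plants grown at 22 °C, took no part in the test and served as an independent measure of the hen2-2 effect.

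Libraries held 47.7 to 156.6 M counts (M for mega), of which 21.5 to 46.3 M fell on nuclear genes and 50.6 to 72.2% on chloroplast genes. Libraries over 100 M counts were replicate 1 of every genotype and replicate 2 of hen2-2 and WT. A gene with 3 counts had 0.0195 to 0.0638 counts per M counts (CPM), depending on the library. Libraries with the same replicate number deviated together, so the number was a term of the model. In replicate 2 they did so weakly between genotypes with and without se-2, with correlations of 0.11 to 0.21. In that replicate chloroplast genes took 50.6% (se-2 hen2-2) and 51.7% (se-2) of counts, against 69.6% (hen2-2) and 68% (WT). Without the replicate term 2 genes were called higher and 1 lower, and these were GSTF6, APL3 and AT3G11720. With 1 library left out, between 13 and 55 genes were called higher and between 0 and 33 lower. The lowest counts, 13 and 0, were found without hen2-2 replicate 2 (1 library of 12), and 15 and 1 without WT replicate 3. All 84 genes kept the sign of the interaction in every alternative fit that tested them (22 or 23 fits for each gene). They also kept it in each of the 3 replicate numbers taken alone, where 36.3% of all genes tested had the same sign in all 3. The same libraries called these genes, so the agreement in sign follows in part from the call and is no separate support.

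HEN2 (AT2G06990) had 2.29, 2.45 and 4.36 CPM in se-2 hen2-2, against 6.83, 8.67 and 8.07 CPM in se-2. It had 2.3, 2.58 and 2.94 CPM in hen2-2, against 6.28, 8.11 and 6.61 CPM in WT. The mutant allele lowered HEN2 to a like extent in both backgrounds, by 1.40 (adjusted p = 0.00256) and 1.44 (adjusted p = 0.00463) on the log2 scale, with an interaction of 0.03 (adjusted p = 0.986). SE (AT2G27100) had 2.61, 3.02 and 3.26 CPM in se-2 hen2-2 and 2.71, 2.45 and 3.07 CPM in se-2. Its levels were 4.78, 5.46 and 6.23 CPM in hen2-2 and 5.59, 5.92 and 6.83 CPM in WT. SE was therefore lower in both genotypes with se-2 than in both without it, and its interaction was 0.26 (adjusted p = 0.755). The interaction of the other NEXT subunits was 0.21 for ZCCHC8A, −1.32 for ZCCHC8B and −0.27 for RBM7, none of them called.

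All 5 leaf markers tested (RCA and light harvesting genes among them) had an interaction below 0, with a median of −0.37, and none was called in the interaction. In se-2 hen2-2, 2 of the 5 were lower than in WT and 3 lower than in hen2-2, where 696 and 355 of 19454 genes tested were. Against se-2, 0 of the 5 were lower. The summed level of the markers was 1520 to 3310 CPM in se-2 hen2-2, 2360 to 3700 CPM in se-2, 2560 to 5230 CPM in hen2-2 and 2390 to 4790 CPM in WT. The part of these markers in the results below was not tested. Markers of seeds and roots did not pass the filter on low counts (0 of 4 in each list), and 1 of 7 flower markers did. In bulk leaves, fewer cells of a type and less RNA per cell cannot be told apart.

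Sequences of 2 pairs of a miRNA and its target are shown because the precursor MIR156C and the targets SPL9 and ARF8 were among the 27 genes with an interaction below 0. Capitals mark the seed (bases 2 to 8) of the miRNA and the bases of the target site that face it, whether or not they pair. The miR156c site in SPL9 (chr2:17589066-17589085, plus strand) and the miR167a site in ARF8 (chr5:14633841-14633861, plus strand) both lie in coding sequence, with 1 and 3 mismatches to the miRNA. The mature miRNA sequences lie at chr4:15415491-15415510 (minus strand) for miR156c-5p and at chr3:8108090-8108110 (plus strand) for miR167a-5p, and all are from RefSeq, build TAIR10.1.
miR156c-5p: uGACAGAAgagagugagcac
SPL9 site: gtgctctctctcTTCTGTCa
miR167a-5p: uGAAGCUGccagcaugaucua
ARF8 site: tagatcaggctggCAGCTTGt

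The 57 genes with an interaction above 0 were all protein coding, with a median interaction of 2.03. Their interactions lay between 0.975 and 5.48, leaving out MRD1, which had no count in se-2 and whose fitted value rests on the prior count. The 27 below 0 ranged between −3.465 and −0.769 with a median of −1.35, and comprised 25 protein-coding genes, 1 miRNA gene and 1 plastid gene. At the edge of the threshold, CNGC11 (1.545) and SUVR5 (−1.22) were just inside, and TPS5 (1.86) and HA3 (−1.12) just outside. The effect of hen2-2 in each background is part of the interaction, so the calls that follow describe these genes and are no separate test.

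Of the 57 genes, 50 rose in se-2 hen2-2 against se-2, while 465 of all genes (2.39%) did so and 261 (1.34%) fell. In hen2-2 against WT, 1 of the 57 rose and 5 fell, where 163 of all genes (0.838%) rose and 16 (0.0822%) fell. Thus 47 of the 57 rose on loss of HEN2 in se-2 and were not called in WT. In se-2 against WT, 19 of the 57 were lower and 2 higher, where 190 of all genes (0.977%) were lower and 207 (1.06%) higher. In se-2 hen2-2 against WT, 30 were higher and 2 lower, where 868 of all genes (4.46%) were higher and 696 (3.58%) lower. All 3 se-2 hen2-2 libraries lay above the 9 others for 26 of the 57, where 2.65% of all genes did so, and se-2 hen2-2 and se-2 did not overlap for 45, where 15.8% of all genes did not.

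**Figure D1:**
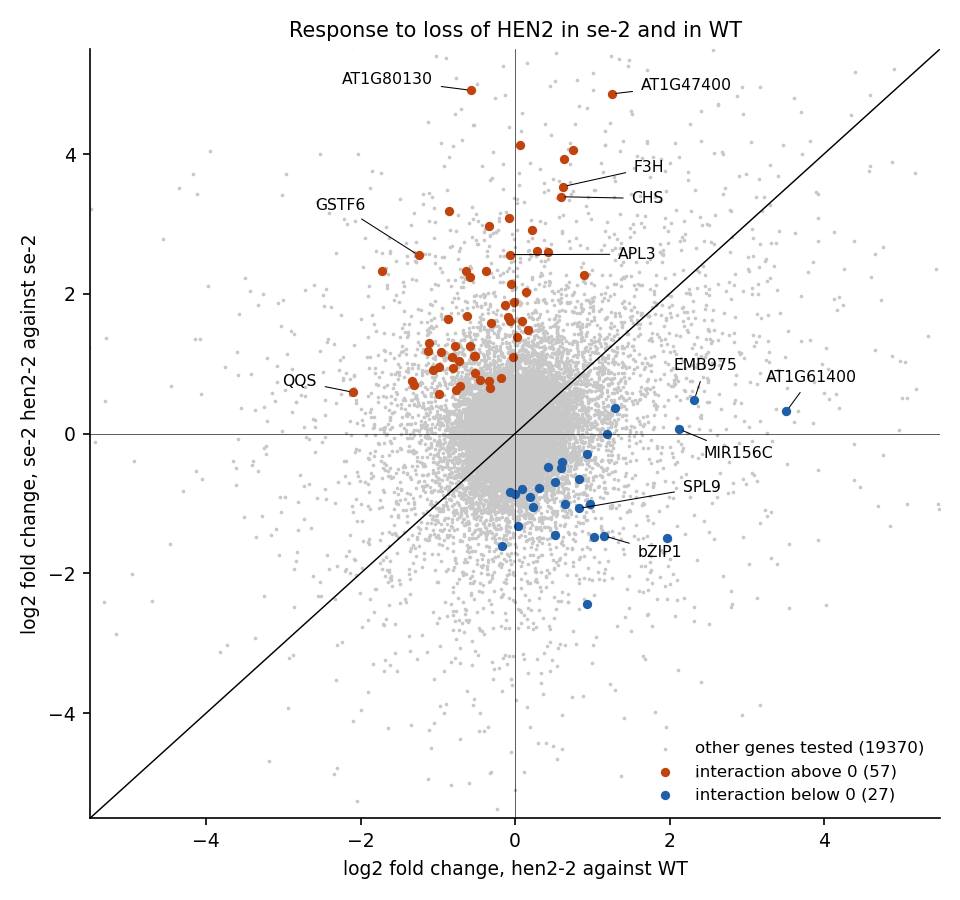
Log2 fold change of hen2-2 over WT (x axis) and of se-2 hen2-2 over se-2 (y axis) for the genes tested, with the line of equal response. The 57 genes with an interaction above 0 lie above the line and the 27 below 0 lie under it, and 175 genes fall outside the axes, among them 1 called gene, MRD1.

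AT1G80130, which encodes a tetratricopeptide repeat protein, had the smallest p of all genes. It had 7.18, 21.1 and 12.4 CPM in se-2 hen2-2, against 0.245, 0.728 and 0.367 CPM in se-2. Levels in hen2-2 were 0.674, 1.98 and 1.61 CPM, against 1.21, 2.31 and 2.49 CPM in WT. Loss of HEN2 thus left it 30.1-fold higher in se-2, and without a called change in WT. The interaction was 5.48 ± 0.32 (SE of the estimate, adjusted p = 1.95e-05), and se-2 alone lowered the gene by 2.22 on the log2 scale (adjusted p = 0.000824).

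GSTF6, a glutathione S-transferase, had 45.3, 45.9 and 35.5 CPM in se-2 hen2-2, against 7.91, 7.65 and 6.05 CPM in se-2. In hen2-2 it had 7.22, 6.27 and 6.37 CPM, against 10.6, 13.7 and 23.4 CPM in WT. GSTF6 therefore rose in se-2 (2.55, adjusted p = 0.000323) and fell in WT (−1.25, adjusted p = 0.0425), and no libraries overlapped in either comparison. Its interaction was 3.80 ± 0.36 (adjusted p = 0.00243). Reads of the near-identical neighbour GSTF7, whose interaction was 1.61 (adjusted p = 0.211), may be divided between the copies.

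A second gene called in opposite directions was AT2G37710, a receptor lectin kinase. It had 28.7, 23.4 and 20.8 CPM in se-2 hen2-2, against 16.5, 15.1 and 13.8 CPM in se-2. It had 17.1, 16.9 and 14.4 CPM in hen2-2, against 29.4, 26 and 24.1 CPM in WT. Either mutation alone brought it to about the same level, and the double mutant was above both single mutants in all libraries, with an interaction of 1.39 ± 0.16 (adjusted p = 0.00491).

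A set of 3 genes, QQS, PCR1 and AT3G28540, fell in WT and had no called change in se-2, where their log2 fold changes were 0.59, 0.75 and 0.69. They were chosen after their values were seen. QQS, an orphan gene that affects starch content, had 3.31, 4.96 and 3.79 CPM in se-2 hen2-2, against 3.06, 3.08 and 2 CPM in se-2. It had 1.05, 0.455 and 0.631 CPM in hen2-2, against 3.59, 2.22 and 3.17 CPM in WT. All hen2-2 libraries of QQS were below all others, and its interaction was 2.69 (adjusted p = 0.0311). The reverse case was AT3G05165, a major facilitator family transporter and the 1 gene of the 57 that rose in both backgrounds. It had 35.5, 28.9 and 26.4 CPM in se-2 hen2-2, against 7.53, 5.26 and 6.17 CPM in se-2. It had 4.73, 4.52 and 5.52 CPM in hen2-2, against 2.66, 2.52 and 2.78 CPM in WT. The double mutant was above all other libraries and WT below them, and the interaction was 1.38 (adjusted p = 0.0221).

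RK1, a receptor kinase, had its lowest mean in se-2. It had 8.58, 6.42 and 3.33 CPM in se-2 hen2-2, against 2.27, 2.2 and 1.24 CPM in se-2. It had 5.2, 3.64 and 2.48 CPM in hen2-2, against 7.92, 6.41 and 5.6 CPM in WT. The interaction of RK1 was 2.52 (adjusted p = 0.00485). AT1G35710, a kinase with leucine-rich repeats, had 53.9, 31.4 and 16.6 CPM in se-2 hen2-2, against 5.68, 3.85 and 2.14 CPM in se-2. It had 16.6, 13.1 and 11.6 CPM in hen2-2, against 19.1, 10.1 and 14.6 CPM in WT. Loss of HEN2 raised AT1G35710 in se-2 by 3.09 and changed it by −0.08 in WT, which was not called. The interaction was 3.17 for AT1G35710, 4.04 for WAK3 (a wall-associated kinase), 2.03 for AT5G46260 and 1.62 for AT5G41750 (both TIR-NBS-LRR resistance proteins). WRKY46 (a WRKY transcription factor, 2.31) and the cyclic nucleotide gated channels CNGC3 (1.75) and CNGC11 (1.545) were also among them and lie near each other on chromosome 2.

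AT1G68600, of the aluminium-activated malate transporter family, had 15.8, 6.97 and 8.43 CPM in se-2 hen2-2, against 1.47, 0.495 and 0.244 CPM in se-2. It had 9.09, 3.28 and 1.87 CPM in hen2-2, against 11.6, 2.52 and 1.53 CPM in WT. It was lowest in se-2 within each replicate number, and the interaction was 4.07 (adjusted p = 0.00491). Of the 19 genes lower in se-2 than in WT, 11 were not called in se-2 hen2-2 against WT, 6 were higher there and 2 (AT1G23130 and AT5G54710) were still lower. The extreme case was MRD1, with 1.71, 1.74 and 1.54 CPM in se-2 hen2-2 and no count in any se-2 library. MRD1 had 3.68, 4.01 and 2.1 CPM in hen2-2, against 0.397, 1.66 and 2.05 CPM in WT. With se-2 set to 3 counts per library, MRD1 was at least 43.8-fold higher in se-2 hen2-2, and its fitted interaction is no bound. On the linear CPM scale the departure of MRD1 was −0.23 CPM, the opposite sign.

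**Figure D2:**
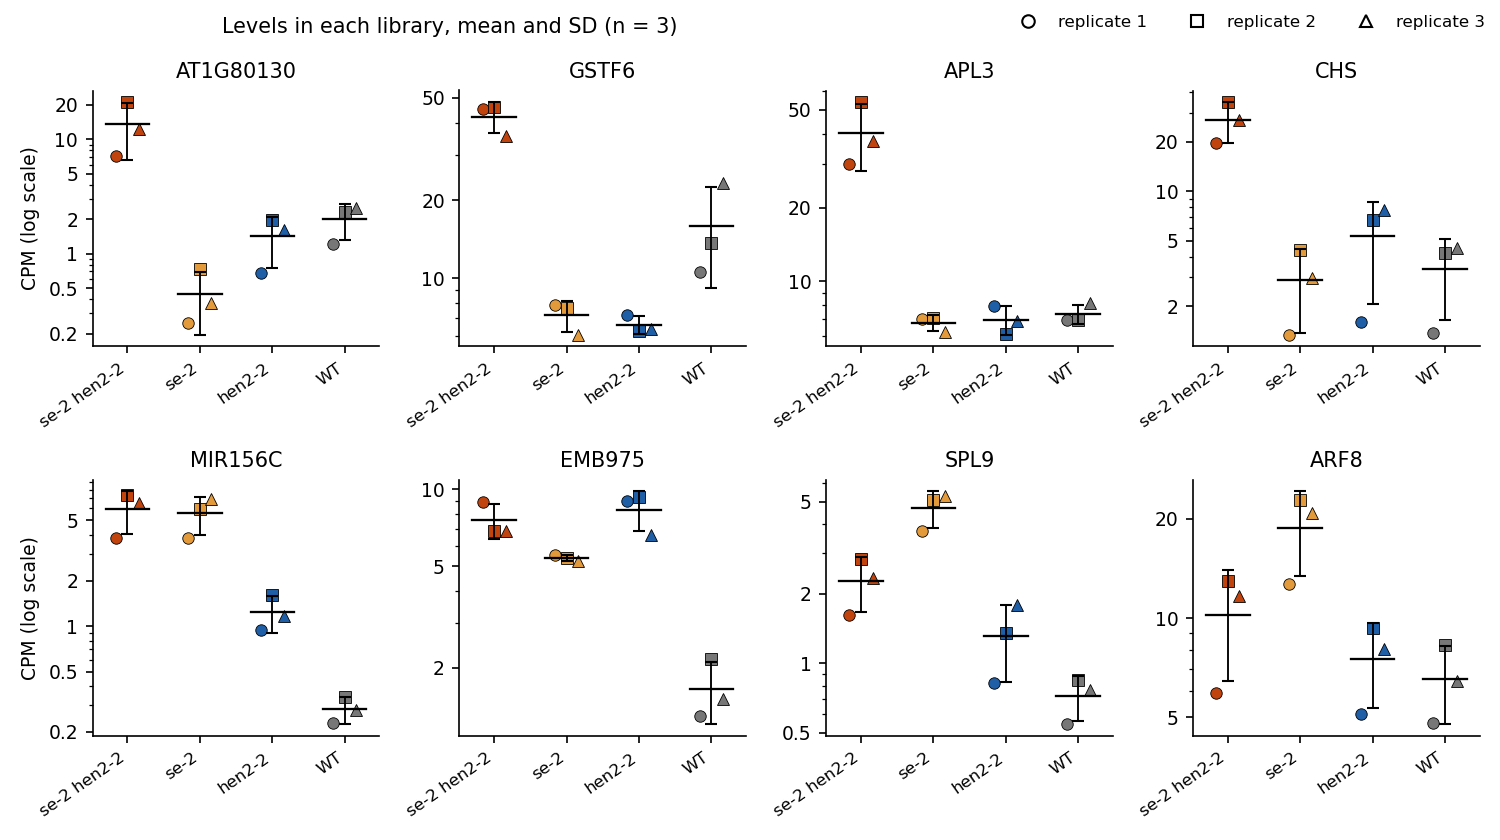
CPM on a log axis for 8 genes in se-2 hen2-2, se-2, hen2-2 and WT, with points for the libraries (marker shape by replicate number) and the mean ± SD of 3 libraries. AT1G80130, GSTF6, APL3 and CHS are highest in se-2 hen2-2, MIR156C and EMB975 are lowest in WT, and SPL9 and ARF8 are highest in se-2.

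Flavonoid genes were high in the double mutant. CHS, chalcone synthase at the entry to flavonoid synthesis, had 19.6, 34.8 and 27.2 CPM in se-2 hen2-2, against 1.34, 4.4 and 2.98 CPM in se-2. It had 1.6, 6.72 and 7.68 CPM in hen2-2, against 1.38, 4.22 and 4.51 CPM in WT. All se-2 hen2-2 libraries were above all others, 10.5-fold over se-2, and the interaction was 2.80 ± 0.38 (adjusted p = 0.0135). F3H, flavanone 3-hydroxylase, had 26, 44.7 and 36.6 CPM in se-2 hen2-2, against 1.47, 5.68 and 3.13 CPM in se-2. It had 1.18, 2.32 and 3.98 CPM in hen2-2, against 0.684, 1.63 and 2.6 CPM in WT. Its interaction was 2.91 (adjusted p = 0.0202), again with no overlap between se-2 hen2-2 and the 9 other libraries.

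Of 13 flavonoid and anthocyanin genes, CHS and F3H were called (2 higher, 0 lower), while 10 rose in se-2 hen2-2 against se-2. The interaction was above 0 in 13 of 13, with a median of 3.91, where the median over all genes tested was −0.002. For 12 of the 13 all se-2 hen2-2 libraries lay above the 9 others, FLS1 being the exception. Over all genes tested, 0.293% were called higher, 2.39% rose in se-2 hen2-2 against se-2 and 2.65% had all se-2 hen2-2 libraries above the others. The list median was between 2.86 and 4.48 over 23 alternatives, which reuse the same libraries. The number called higher was 7 by DESeq2, 4 by limma-voom and 0 without the replicate term. It was 1, 0 and 0 without replicate 1, 2 or 3. This list and those below were chosen with earlier results of these data known, so their shares are a description and no separate test. DFR, dihydroflavonol reductase, fell just outside the threshold with an interaction of 4.91 (adjusted p = 0.0524). It had 70.2, 80.9 and 59.1 CPM in se-2 hen2-2, against 0.801, 3.05 and 3.04 CPM in se-2. It had 0.0824, 2.11 and 3.75 CPM in hen2-2, against 0.238, 1.27 and 2.1 CPM in WT, a range within genotypes as wide as its small differences between them. PAP1, a MYB activator of anthocyanin genes, had an interaction of 3.86 (adjusted p = 0.0583). The called genes of linked reactions were not in the list: PAL1 (phenylalanine ammonia lyase, 2.19), CHIL (a chalcone isomerase-like protein, 3.30) and UGT78D2 (a flavonoid glucosyltransferase, 2.70). PAL1 had 24.8, 23.1 and 22.4 CPM in se-2 hen2-2, against 3.64, 7.14 and 6.1 CPM in se-2, and it had 6.88, 10.2 and 13.6 CPM in hen2-2, against 7.39, 11.3 and 12.9 CPM in WT.

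The 250 bases before the annotated starts of CHS (chr5:4488226-4488475, plus strand) and F3H (chr3:19024942-19025191, plus strand) are printed because both genes moved together and each holds a G-box. Capitals mark the G-box, CACGTG, which reads the same on both strands and was searched with no allowance for mismatches. Sequences are from RefSeq, build TAIR10.1.
CHS promoter: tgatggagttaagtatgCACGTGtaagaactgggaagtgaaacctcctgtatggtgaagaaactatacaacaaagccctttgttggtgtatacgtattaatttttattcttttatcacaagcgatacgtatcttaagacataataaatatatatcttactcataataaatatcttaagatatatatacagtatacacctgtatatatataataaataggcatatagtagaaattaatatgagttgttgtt
F3H promoter: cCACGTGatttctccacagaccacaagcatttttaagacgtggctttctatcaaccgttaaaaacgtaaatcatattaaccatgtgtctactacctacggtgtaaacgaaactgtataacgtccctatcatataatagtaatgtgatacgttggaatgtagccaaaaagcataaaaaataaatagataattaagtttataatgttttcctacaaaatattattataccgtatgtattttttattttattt
The G-box begins 233 bases before the start of CHS and 249 before that of F3H. It was found in 5 of 13 flavonoid genes (38.5%), in 4 of 11 iron response genes (36.4%) and in 1403 of 19211 windows of this length over all genes tested (7.3%). Among the called genes 7 of 57 with an interaction above 0 (12.3%) and 1 of 26 below 0 (3.8%) had one, and a match describes the letters only.

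Sulfur assimilation genes formed a further group. APR3, an adenosine 5'-phosphosulfate reductase, had 59.3, 43.7 and 34 CPM in se-2 hen2-2, against 15.6, 13.4 and 13 CPM in se-2. It had 21.4, 9.87 and 9.96 CPM in hen2-2, against 17.1, 9.57 and 15.7 CPM in WT. APR3 was highest in every se-2 hen2-2 library, with an interaction of 1.77 (adjusted p = 0.0321). Of 14 sulfur limitation genes tested, 3 were called higher and 0 lower, namely APR3, SHM7 (a serine hydroxymethyltransferase, 1.52) and AT1G04770 (a tetratricopeptide repeat protein, 1.89). The interaction was above 0 in 14 of 14, with a median of 1.83, and 10 of them rose in se-2 hen2-2 against se-2. For 12 of the 14 all se-2 hen2-2 libraries were above the 9 others, and the list median was between 1.52 and 2.11 over 23 alternatives. The calls were less stable, with 8 genes called higher by DESeq2, 6 by limma-voom and 0 without the replicate term. Without replicate 1, 2 or 3, 0 were called. The shares over all genes were 0.293% called higher, 2.39% rising and 2.65% above the 9 others. LSU1, a gene induced by low sulfur, had an interaction of 4.46 (adjusted p = 0.0527), with 23.7, 19 and 15.1 CPM in se-2 hen2-2 against 0.483, 1.42 and 0.871 CPM in se-2. Its levels were 0.18, 0.0716 and 0.134 CPM in hen2-2 and 0.218, 0.0227 and 0.195 CPM in WT. LSU1 thus rose with se-2 alone (2.80) and rose further in the double mutant. Its levels in hen2-2 and WT rest on few counts, so these fold changes are imprecise. In WT replicate 2 its 0.0227 CPM was the level of 3 counts.

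Of 11 iron response genes, 3 were called, all higher, where 0.293% of all genes tested were called higher. The reference gives these 3 no symbol. AT1G47400 had 2.21, 2.89 and 5.68 CPM in se-2 hen2-2, against 0.116, 0.0929 and 0.122 CPM in se-2. It had 0.39, 0.579 and 1.22 CPM in hen2-2, against 0.258, 0.114 and 0.602 CPM in WT. Loss of HEN2 raised it 29.1-fold in se-2, and its interaction was 3.61 (adjusted p = 0.0353). Its neighbour AT1G47395, 1876 bases away, had an interaction of 3.32, and AT2G30766 on chromosome 2 had 2.17 (adjusted p = 0.0217). AT2G30766 had 4.59, 6.27 and 13.4 CPM in se-2 hen2-2, against 0.512, 1.02 and 3.04 CPM in se-2, and was lower in se-2 than in WT by 1.26 on the log2 scale. The list had an interaction above 0 in 8 of 11 genes, where 9687 of 19454 genes tested had one. Of the 11, 6 rose in se-2 hen2-2 against se-2 (2.39% of all genes). The 3 ferritins of the list, which store iron, had interactions of −0.05 (FER1), −0.40 (FER3) and −0.15 (FER4). Its median of 1.46 moved between −0.04 and 2.18 over 23 alternatives.

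Of the 22 sugar starvation and starch genes, APL3 and ISA3 were called higher and 0 lower, where 0.293% and 0.139% of all genes were. APL3, a large subunit of ADP-glucose pyrophosphorylase in starch synthesis, had 30, 53.8 and 37.5 CPM in se-2 hen2-2, against 7.04, 7.09 and 6.22 CPM in se-2. It had 7.95, 6.09 and 6.92 CPM in hen2-2, against 6.98, 6.95 and 8.14 CPM in WT. The 9 libraries of the other genotypes lay within a narrow band and the double mutant 5.9-fold above se-2, with an interaction of 2.63 ± 0.28 (adjusted p = 0.00485). ISA3, a debranching enzyme of starch breakdown, had 57.9, 50.3 and 39.6 CPM in se-2 hen2-2, against 24.1, 7.06 and 7.7 CPM in se-2. It had 27.9, 6.79 and 4.21 CPM in hen2-2, against 31.3, 12.2 and 8.15 CPM in WT, with replicate 1 the highest of each genotype. The interaction of ISA3 was 2.82 (adjusted p = 0.0282), and that of SEX4, a starch phosphatase outside the list, was 1.67. Over the whole list the interaction was above 0 in 12 of 22, with a median of 0.17, where 9687 of 19454 genes tested were above 0. The list split in both directions, with 17 of 22 at an unadjusted p under 0.05 in edgeR's test (2046 of all genes tested). In all 3 replicate numbers 9 of the 22 were above 0 and 9 below. The sugar starvation genes ASN1 and SEN1 fell in se-2 hen2-2 against se-2, by 2.50 and 2.19 on the log2 scale.

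KAT5, a 3-ketoacyl-CoA thiolase, repeated the pattern of APL3. It had 40.1, 71.7 and 52.8 CPM in se-2 hen2-2, against 11.4, 16.6 and 11.8 CPM in se-2. It had 10.4, 11.9 and 15.2 CPM in hen2-2, against 9.33, 11.5 and 13 CPM in WT. The interaction was 1.88 (adjusted p = 0.00907). The remaining genes named by the rule were AT3G19010 (a 2-oxoglutarate-dependent oxygenase, 1.63), AT1G76960 (3.30), AT5G05250 (2.33) and GAMMA-VPE (a vacuolar processing enzyme, 1.38).

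**Figure D3:**
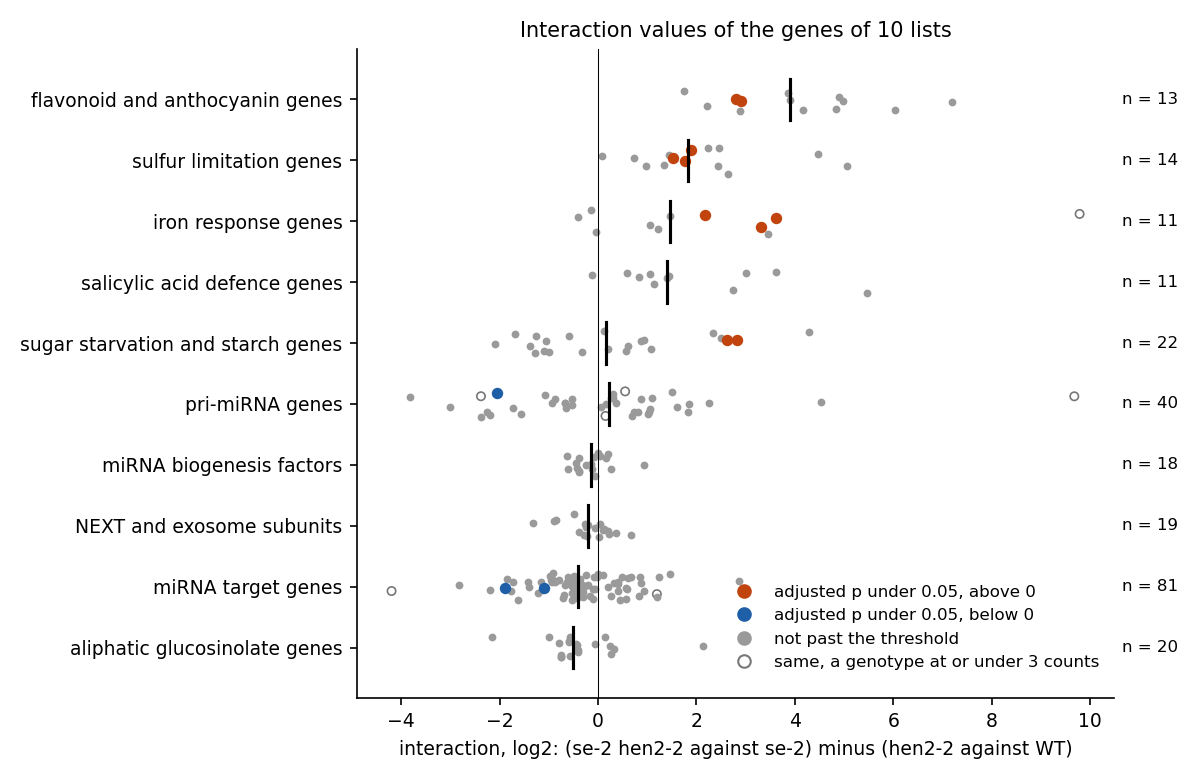
Interaction on the log2 scale (x axis) for every tested gene of 10 lists, with a bar at the list median and open circles for genes with a genotype at or under 3 counts in all its libraries. Flavonoid genes (median 3.91) and sulfur limitation genes (1.83) lie wholly above 0, and 57 of 81 miRNA target genes lie below 0.

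Of the 27 genes with an interaction below 0, 16 fell in se-2 hen2-2 against se-2, where 1.34% of all genes fell, and 11 were not called. In hen2-2 against WT 7 rose and none fell, where 0.838% and 0.0822% of all genes did. In se-2 against WT 20 were higher and none lower, where 1.06% and 0.977% of all genes were. Of these 20, 10 were higher than WT in se-2 hen2-2 as well and 10 were not called there. In se-2 hen2-2 against WT, 10 of the 27 were higher and 4 lower, where 4.46% and 3.58% of all genes were. The se-2 hen2-2 and se-2 libraries did not overlap for 14 of the 27, where 15.8% of all genes did not. The hen2-2 and WT libraries did not overlap for 12, where 12.9% of all genes did not.

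In all, 7 of the 27 were raised by either mutation alone, and hen2-2 made no called difference to them in se-2. MIR156C, a precursor of miR156, had 3.81, 7.4 and 6.53 CPM in se-2 hen2-2, against 3.83, 5.96 and 6.97 CPM in se-2. It had 0.944, 1.6 and 1.17 CPM in hen2-2, against 0.228, 0.341 and 0.277 CPM in WT. Loss of HEN2 raised it 4.35-fold in WT (adjusted p = 0.00062) and 1.05-fold in se-2 (adjusted p = 0.909), and se-2 alone raised it 19.4-fold. The interaction was −2.06 ± 0.29 (adjusted p = 0.0152). EMB975, a tetratricopeptide repeat protein, had 8.93, 6.87 and 6.87 CPM in se-2 hen2-2, against 5.54, 5.4 and 5.24 CPM in se-2. It had 8.99, 9.35 and 6.63 CPM in hen2-2, against 1.3, 2.17 and 1.51 CPM in WT. EMB975 was thus low in WT only, with an interaction of −1.83 (adjusted p = 0.021).

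AT1G61400, an S-locus lectin kinase, had 3.13, 2.27 and 3.45 CPM in se-2 hen2-2, against 1.65, 3.17 and 2.69 CPM in se-2. It had 2.17, 2.03 and 3.82 CPM in hen2-2, against 0.109, 0.425 and 0.146 CPM in WT, and its interaction was −3.19. AT3G11280, of the homeodomain-like family, had 16.6, 11.6 and 10.5 CPM in se-2 hen2-2, against 14.1, 12.4 and 12.1 CPM in se-2, and it had 11.8, 12.3 and 11.9 CPM in hen2-2, against 5.42, 5.48 and 4.9 CPM in WT. Both had WT below the 9 other libraries. AT2G28150 (−0.93), SUVR5 (a histone lysine methyltransferase, −1.22) and AT5G42620 (a metalloendopeptidase, −1.02) were the others that rose in hen2-2.

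A different pattern, high in se-2 and lower again in the double mutant, was shown by SPL9 and ARF8. SPL9, a transcription factor targeted by miR156, had 1.62, 2.83 and 2.34 CPM in se-2 hen2-2, against 3.72, 5.09 and 5.27 CPM in se-2. It had 0.816, 1.35 and 1.78 CPM in hen2-2, against 0.545, 0.849 and 0.765 CPM in WT. Loss of HEN2 lowered SPL9 in se-2 (−1.07, adjusted p = 0.019) and its change in WT was 0.82, not called, which gave an interaction of −1.89 ± 0.32 (adjusted p = 0.0311). ARF8, an auxin response factor targeted by miR167, had 5.94, 13 and 11.7 CPM in se-2 hen2-2, against 12.7, 22.9 and 20.9 CPM in se-2. It had 5.12, 9.35 and 8.09 CPM in hen2-2, against 4.82, 8.3 and 6.45 CPM in WT. Within each replicate number ARF8 was lower in se-2 hen2-2 than in se-2, and its interaction was −1.10 ± 0.19 (adjusted p = 0.0321).

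Over all 81 miRNA target genes tested, 0 were called higher in the interaction and 2 lower, where 0.293% and 0.139% of all genes were. Their median interaction was −0.40, with 57 of 81 below 0, where 9754 of 19454 genes tested were below 0. The median was between −0.48 and −0.30 over 23 alternatives. In se-2 against WT 17 of the targets were higher and 1 lower, where 1.06% and 0.977% of all genes were. The interaction was below 0 in each of those 17, and 9 of them fell in se-2 hen2-2 against se-2: SPL9, CSD2, CCS1, GRF1, AT1G63130, PHB, ARF8, CSD1 and ATHB15. These values share the se-2 libraries, which sets part of this relation, and it is given as a description. CSD2, a copper/zinc superoxide dismutase targeted by miR398, had 4.24, 3.1 and 11.3 CPM in se-2 hen2-2, against 31.8, 26.2 and 26.3 CPM in se-2. It had 2.47, 2.37 and 9.02 CPM in hen2-2, against 4.9, 3.6 and 15 CPM in WT. The double mutant was back in the range of the other genotypes, and the interaction of CSD2, −1.77, was not called (adjusted p = 0.155).

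Pri-miRNAs gave no common direction on the log2 scale. Of 40 tested, of 52 in the list, 0 were called higher and 1 (MIR156C) lower, where 0.293% and 0.139% of all genes were. The interaction was above 0 in 23 of the 40, with a median of 0.21 that lay between −0.19 and 0.40 over 23 alternatives. With the 4 genes that had a genotype at or under 3 counts set to that floor, the median was 0.28. An unadjusted p under 0.05 in edgeR's test was found for 16 of the 40 and for 2046 of 19454 genes tested. In all 3 replicate numbers 15 of the 40 were above 0 and 12 below, where 3502 and 3546 of all genes were. DESeq2 called 3 higher and 5 lower (314 and 231 of all genes), and limma-voom 0 and 2 (244 and 143). Taken as a departure on the linear CPM scale, the interaction was above 0 in 31 of the 40 and below 0 in 9. Over all genes tested it was above 0 on that scale in 9880 and below 0 in 9574, so the direction depends on the scale. In se-2 hen2-2 against se-2 11 rose and none fell, and in hen2-2 against WT 8 rose, where 2.39% and 0.838% of all genes did. In se-2 against WT 20 rose (1.06% of all genes), and all se-2 hen2-2 libraries were above the 9 others for 18 of the 40 (2.65% of all genes). MIR398B had 15.9, 43.1 and 20.5 CPM in se-2 hen2-2, against 2.96, 6.72 and 6.53 CPM in se-2. It had 0.899, 2.4 and 2.12 CPM in hen2-2, against 0.555, 0.993 and 0.635 CPM in WT. It rose on loss of HEN2 in both backgrounds, by 2.27 in se-2 and 1.23 in WT on the log2 scale, and the interaction of 1.04 was not called (adjusted p = 0.205).

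Other pri-miRNAs lay on either side. MIR159B, with an interaction of −1.57 (adjusted p = 0.0645), had 14.3, 8.42 and 9.24 CPM in se-2 hen2-2, against 3.38, 3.08 and 3.32 CPM in se-2. It had 5.32, 5.83 and 5.39 CPM in hen2-2, against 0.456, 0.758 and 0.472 CPM in WT. Both differences were called, and the one in WT was larger on the log2 scale (3.27 against 1.70). MIR173, a trigger of trans-acting siRNAs, had 1.79, 5.06 and 3.7 CPM in se-2 hen2-2, against 0.0505, 0.0619 and 0.26 CPM in se-2. It had 0.0899, 0.0911 and 0.0382 CPM in hen2-2, against 0.0496, 0.0303 and 0.13 CPM in WT, and its interaction was 4.52 (adjusted p = 0.0694). Outside se-2 hen2-2 the levels of MIR173 rest on few counts, so its fold changes are imprecise. In hen2-2 replicate 3 it lay under the level of 3 counts (0.0574 CPM). MIR167A, a precursor of the miRNA that targets ARF8, rose in se-2 hen2-2 against se-2 by 1.83 and had an interaction of 0.82 (adjusted p = 0.382).

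**Figure D4:**
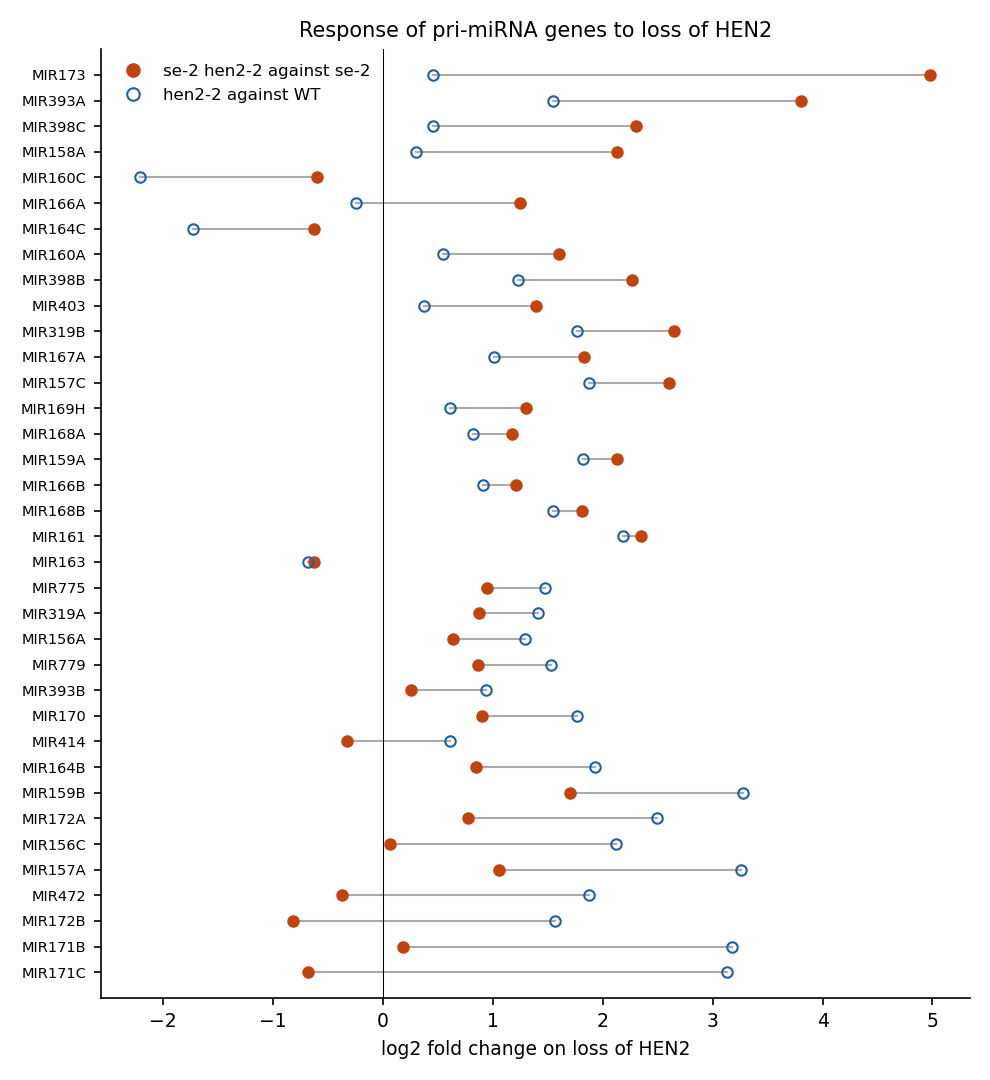
Log2 fold change of hen2-2 over WT and of se-2 hen2-2 over se-2 for 36 of the 40 pri-miRNAs tested, leaving out 4 with a genotype at or under 3 counts in all its libraries. MIR156C, the 1 called gene, lies at 0.06 in se-2 and at 2.12 in WT, and MIR173 lies at 4.98 in se-2 and at 0.46 in WT. The values of MIR173 rest on few counts outside se-2 hen2-2.

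AT3G11720, of the polyketide cyclase family, had 2.21, 2.3 and 2.48 CPM in se-2 hen2-2, against 6.49, 5.71 and 6.94 CPM in se-2. It had 2.76, 3.34 and 2.52 CPM in hen2-2, against 1.9, 2.2 and 1.95 CPM in WT. Loss of HEN2 lowered it in se-2 to near the level of the other genotypes, with an interaction of −1.97 ± 0.26 (adjusted p = 0.0126), the smallest p in this direction. THI2.2, a thionin, had an interaction of −3.37, AT1G06080, a delta 9 desaturase, −2.50, and LACS1, a long-chain acyl-CoA synthetase of wax synthesis, −0.89. DGR2 (−1.29) and TIP2, a tonoplast aquaporin (−0.87), were likewise higher in se-2 than in WT and fell in se-2 hen2-2 against se-2. bZIP1, a transcription factor, fell in se-2 hen2-2 against se-2, with 1.7, 1.38 and 2.51 CPM in se-2 hen2-2 against 4.71, 5.76 and 5 CPM in se-2. It had 4.13, 4.92 and 6.9 CPM in hen2-2 and 1.89, 3.36 and 1.81 CPM in WT, and its interaction was −2.62 (adjusted p = 0.0204). Neither single mutant was called against WT for bZIP1.

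A group of 3 genes was low in the double mutant alone, with all se-2 hen2-2 libraries below the 9 others, where 2.16% of all genes were. UGT75B1, a glucosyltransferase, had 7.28, 7.61 and 7.88 CPM in se-2 hen2-2, against 21.3, 19.6 and 16.1 CPM in se-2. It had 19, 11.2 and 14.9 CPM in hen2-2, against 16.5, 12 and 15.3 CPM in WT, and its interaction was −1.35 (adjusted p = 0.036). The plastid gene ATCG00170 had 179, 202 and 253 CPM in se-2 hen2-2, against 324, 391 and 411 CPM in se-2. It had 354, 429 and 470 CPM in hen2-2, against 391, 443 and 472 CPM in WT, and its interaction was −0.77 (adjusted p = 0.0334). The third was SCPL13, a serine carboxypeptidase-like protein (−1.43). Of 133 plastid genes, 99 had an interaction below 0, with a median of −0.23, where 9754 of 19454 genes tested were below 0. All se-2 hen2-2 libraries lay below the 9 others for 30 of these 133, so ATCG00170 shared this trait with other plastid genes. In se-2 hen2-2 against WT, 47 of the 133 were lower (3.58% of all genes). ATCG00170 was the 1 plastid gene called, where 0.139% of all genes were called lower.

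The 6 libraries from 22 °C gave a view of the hen2-2 effect in WT that did not enter the interaction. There 1382 of 19506 genes (7.08%) were higher in hen2-2 than in WT and 1012 (5.19%) lower. These calls were sensitive to single libraries, with 306 to 5056 genes called when 1 was left out (306 without hen2-2 replicate 2 and 5056 without WT replicate 3), and all hen2-2 libraries (91.3 to 105.5 M estimated reads) were larger than all WT libraries (62.6 to 84.1 M). Of the 57 genes with an interaction above 0, 25 (43.9%) were lower in hen2-2 at 22 °C, 5 were higher and 27 were not called. Of the 27 genes below 0, 13 (48.1%) were higher, 1 (UGT75B1) was lower and 13 were not called. The sign at 22 °C was the sign at 20 °C for 50 of the 57 (87.7%) and 22 of the 27 (81.5%), where it was for 65.4% of all genes tested in both.

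At 22 °C GSTF6 had 11.8, 10.1 and 8.78 CPM in hen2-2, against 18.9, 16.4 and 16.4 CPM in WT. APL3 had 9.25, 6.42 and 6.79 CPM in hen2-2, against 13, 9.68 and 8.52 CPM in WT. GSTF6 fell without overlap (−0.76, adjusted p = 0.00407) and APL3 with some (−0.47, adjusted p = 0.0209). EMB975 had 5.71, 7.49 and 10.4 CPM in hen2-2, against 0.77, 1.63 and 2.87 CPM in WT, a difference of 2.27 (adjusted p = 0.00134) beside 2.32 at 20 °C. MIR156C had 0.457, 0.489 and 0.552 CPM in hen2-2, against 0.0566, 0.212 and 0.0748 CPM in WT, a difference of 2.20 (adjusted p = 0.0215) beside 2.12 at 20 °C. The 5 genes of the 57 that were higher in hen2-2 at 22 °C were AT1G20100, AT3G05165, MRD1 and the iron response genes AT1G47395 and AT1G47400.

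**Figure D5:**
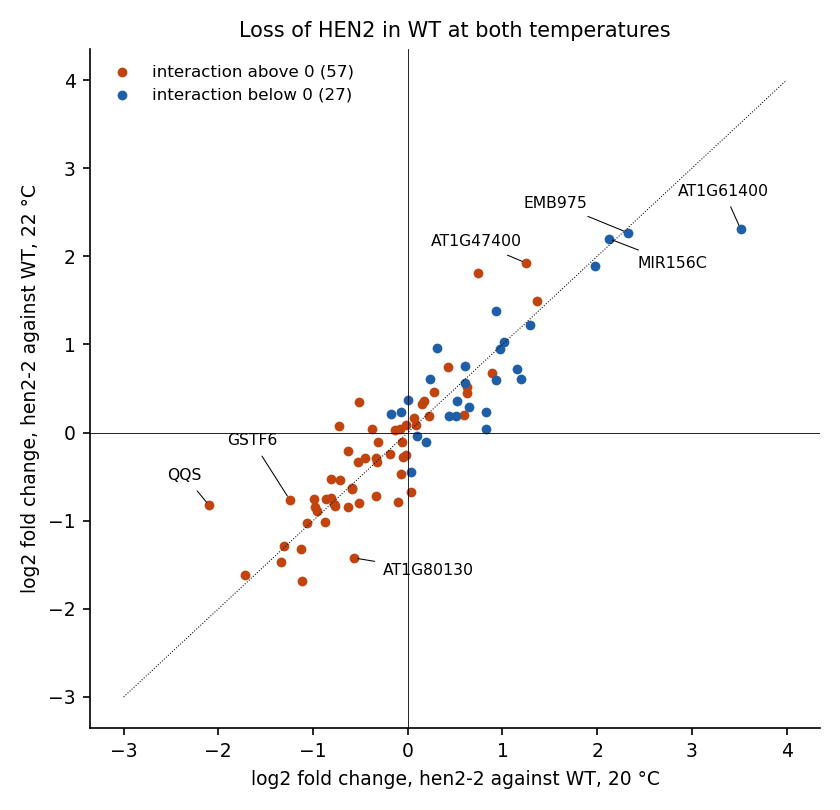
Log2 fold change of hen2-2 over WT at 20 °C (x axis) and at 22 °C (y axis) for the 84 called genes, with a dotted line of equal change. Signs are the same at both temperatures for 50 of the 57 genes with an interaction above 0 and for 22 of the 27 below 0.

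Some called genes were neighbours. Within 20000 bases of each other lay AT1G35710 and ANNAT1 (an annexin, 486 bases apart), AT1G47395 and AT1G47400 (1876 bases), AT1G76960 and AT1G76980 (4731 bases), and AT5G05250 and CHIL (4799 bases). So did the ankyrin repeat genes AT5G54710 and AT5G54720 (784 bases), and WRKY46, CNGC3 and CNGC11, with all members of these groups called higher. AT1G75230, a DNA glycosylase called lower, and AT1G75280, called higher, lay 14335 bases apart. Single-exon genes made up 10.5% of the 57 and 20.0% of the 25 protein-coding genes below 0, where they were 13.4% of all protein-coding genes tested. The median level in WT was 6.92 CPM for the 57 and 5.26 CPM for the 25, against 2.41 CPM for all.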

How the data were processed

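The 20 °C libraries were deposited as whole-number counts per gene, which the authors made with Trimmomatic, HISAT2 and StringTie on TAIR10 from paired-end reads of directional libraries (tool versions, the read length set in the counting step and its use of strand are not given in the sources used here). Without strand, reads of overlapping and antisense genes cannot be told apart. For 22 °C the authors deposited estimated counts per transcript from Salmon, which were summed per gene and rounded (60.5% of values above 0 were not whole).

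Genes passing edgeR's default filter on low counts (19454 of 32832 in the table, of which 24069 had at least 1 count) were fitted by edgeR 4.0.16 (R 4.3.3) with TMM scaling, genotype and replicate number as terms, and the quasi-likelihood test with Benjamini-Hochberg adjustment at 0.05. Levels are TMM-scaled CPM computed from the counts. The replicate number was a term because deviations from genotype means correlated between same-numbered libraries in each of 18 pairs (0.11 to 0.74 over 13640 genes above a mean of 1 CPM). Log2 fold changes carry a prior count of 0.125, and the scripts were tested on simulated data. The p-values measure the spread that remains between these samples with replicate number in the model. Two-sided tests were used throughout.

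The alternatives were no replicate term, DESeq2 1.42.0, limma-voom (limma 3.58.1), other filters and scalings, a term for libraries over 100 M counts, and single libraries left out. Genes were named by a rule: in each direction the 15 with the smallest adjusted p and 1 sign in all 3 replicate numbers (log2 of CPM plus 0.1), HEN2, SE and NEXT subunits, and the called members of each list described, or the 2 with the smallest p. Other genes were chosen after their values were seen. The members and lists were chosen with earlier results of these data known. Small RNA libraries were not used here.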

Additional observations from a re-analysis of the deposited data

Results flagged for a closer look

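The effect of hen2-2 differed between the se-2 and WT backgrounds for 57 genes in the upward and 27 in the downward direction, by the test of the interaction itself in edgeR. Among named genes the upward interactions on the log2 scale were 5.48 for AT1G80130, 4.07 for AT1G68600, 3.80 for GSTF6, 3.61 for AT1G47400, 3.32 for AT1G47395, 3.30 for AT1G76960, 3.17 for AT1G35710, 2.91 for F3H, 2.82 for ISA3, 2.80 for CHS, 2.63 for APL3, 2.52 for RK1, 2.33 for AT5G05250, 2.19 for PAL1, 2.17 for AT2G30766, 2.03 for AT5G46260, 1.89 for AT1G04770, 1.88 for KAT5, 1.77 for APR3, 1.63 for AT3G19010, 1.52 for SHM7, 1.39 for AT2G37710 and 1.38 for GAMMA-VPE. The downward ones were −3.37 for THI2.2, −2.62 for bZIP1, −2.50 for AT1G06080, −2.06 for MIR156C, −1.97 for AT3G11720, −1.89 for SPL9, −1.83 for EMB975, −1.35 for UGT75B1, −1.29 for DGR2, −1.20 for AT3G11280, −1.10 for ARF8, −1.02 for AT5G42620, −0.89 for LACS1, −0.87 for TIP2 and −0.77 for ATCG00170. The plastid gene ATCG00170 moved by −0.07 in hen2-2 against WT at 20 °C and by 0.23 at 22 °C, with 1 sign in all 3 replicate numbers at each temperature, and the difference between temperatures was not tested.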

How the results depend on the processing

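Over 38 named genes and their alternative fits, 871 pairs in all, 522 were called in the same direction, 349 had the same direction without a call and 0 turned. These fits reuse libraries by which the genes were called, so the kept direction is a description and no separate test. Taken as a departure on the linear CPM scale, the interaction kept its sign for 56 of the 57 higher and 27 of the 27 lower genes, and turned for MRD1 (−0.23 CPM). Of the 84 genes, 6 were not tested with at least 10 counts in all libraries, and ATCG00170 was not tested among nuclear genes only. The counts moved far more. For the interaction (57 higher, 27 lower), 2 and 1 genes were called with no replicate block, where 1090 genes had an unadjusted p under 0.05, 314 and 231 by DESeq2, 244 and 143 by limma-voom, 102 and 42 with no filter, 115 and 61 with at least 10 counts in all libraries, and 87 and 46 with a term for libraries over 100 M counts beside the replicate block. DESeq2 called 84 of the 84 genes, limma-voom 81, and the fit without the replicate block 3. Without 1 library, 13 to 55 genes were called higher and 0 to 33 lower by edgeR. The counts fell by over 1.5 times in both directions without se-2 hen2-2 replicate 2 (21 and 4), se-2 replicate 1 (19 and 5), se-2 replicate 3 (22 and 10), hen2-2 replicates 1 (25 and 3), 2 (13 and 0) and 3 (25 and 5), and WT replicates 1 (26 and 4) and 3 (15 and 1). They fell for lower genes only without se-2 hen2-2 replicate 1 (17), se-2 replicate 2 (10) and WT replicate 2 (10). Leaving out all 4 libraries of replicate 1, 2 or 3, which was added once the data had been seen, gave 8, 1 and 14 genes higher and 2, 0 and 5 lower. Where 0 genes were lower, 1726 (without hen2-2 replicate 2) and 1414 (without replicate 2) genes had an unadjusted p under 0.05.

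Without the replicate block, with DESeq2 and with limma-voom, 172, 1503 and 1420 genes were called for hen2-2 in se-2 (726 in the reported fit), 60, 518 and 358 for hen2-2 in WT (179), and 63, 1014 and 785 for se-2 in WT (397). Without 1 library these were 365 to 696, 84 to 200 and 132 to 414. Without replicate 1, 2 or 3 they were 204, 174 and 359 for hen2-2 in se-2, 57, 56 and 58 for hen2-2 in WT, and 86, 63 and 129 for se-2 in WT. At 22 °C (2394 genes), 263 were called without the replicate block and 306 to 5056 without 1 library. The fits without libraries have fewer samples, and the cause of the other changes was not tested. Depth limits genes near 3 counts, where a fold change rests on the prior count.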

Other observations

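Several further gene groups gave no called gene in the interaction. Of 11 salicylic acid defence genes, 0 were called and 5 had an unadjusted p under 0.05 in edgeR's test, with an interaction above 0 in 10 and a median of 1.41 (0.84 to 1.69 over 23 alternatives). Over all 19454 genes tested, 2046 had an unadjusted p under 0.05 in that test. Of all genes tested, 9687 had an interaction above 0 and 9754 below 0. PR2, a beta-1,3-glucanase, had 76, 57 and 13.4 CPM in se-2 hen2-2, against 24.6, 14.2 and 8.12 CPM in se-2. It had 11.2, 3.94 and 7.07 CPM in hen2-2, against 21.9, 13.1 and 13.4 CPM in WT, with the genotypes se-2 hen2-2 and se-2 overlapping, and its interaction was 2.74 (adjusted p = 0.0542). PR1 had an interaction of 1.45 (adjusted p = 0.0942). At 22 °C, 7 of the 11 defence genes were lower in hen2-2 than in WT and 0 higher, where 5.19% of all genes were lower and 7.08% higher. Of 20 aliphatic glucosinolate genes 0 were called, 12 had an unadjusted p under 0.05 and 15 had an interaction below 0, with a median of −0.50. The smallest p among them belonged to BCAT4 and MAM1, of methionine chain elongation, each with −0.76 (adjusted p = 0.112).

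Noncoding genes gave 0 called interactions among small nuclear and long noncoding RNAs. Of 42 small nuclear RNA genes, 16 rose in se-2 hen2-2 against se-2 and 6 in hen2-2 against WT, where 2.39% and 0.838% of all genes did. Of these 42, 0 were called in the interaction, and the median was 0.30. An unadjusted p under 0.05 in edgeR's test was found for 4 of the 42, where 2046 of all 19454 genes tested had one. The interaction was above 0 in 36 of the 42 and in 9687 of all genes tested. At 22 °C, 3 of 19 small nuclear RNA genes tested were higher in hen2-2 than in WT and 7 lower, with a median of −0.52. Of all genes tested there, 7.08% were higher and 5.19% lower. Of 310 long noncoding RNA genes, 23 rose in se-2 and 15 in WT, where 2.39% and 0.838% of all genes did. In the interaction 0 of the 310 were called, with a median of −0.08. An unadjusted p under 0.05 in edgeR's test was found for 20 of the 310 and for 2046 of all 19454 genes tested. At 22 °C, 63 of 196 long noncoding RNA genes were higher in hen2-2 and 2 lower, where 7.08% and 5.19% of all genes were.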
